A study of Mus musculus with 6 samples.

Results

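The genes described here encode the COPII vesicle coat, which was followed across 6 expression arrays of mouse bone marrow cells. The set holds 10 genes, Sec24a, Sec24b, Sec24c, Sec24d, Sec23a, Sec23b, Sar1a, Sar1b, Sec13 and Sec31a, of 18193 genes that the arrays read with a probe set of 1 gene symbol. The family was chosen by the signal of Sec24d, which had been found lower in B.D(Chr5) than in C57B/L6 on these same arrays, and the other 9 genes were then taken by name as the remaining coat subunits. The strain difference of Sec24d is therefore given as a description with no test. A probe set is the group of short array probes that together read 1 transcript, and 14 probe sets read the 10 genes. Of these, 12 lay in the upper 50% of probe sets by mean signal and entered the strain comparison, and every gene had at least 1 of them.

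The arrays came from adult female mice aged 6 to 16 weeks, 3 arrays from B.D(Chr5) mice and 3 from C57B/L6 mice. The name B.D(Chr5) points to chromosome 5, and its genetic background is labelled B.D. From both strains, bone marrow cells were depleted, by flow sorting, of cells with markers of mature blood lineages, which enriches haematopoietic stem and progenitor cells but leaves a mixture of cell types. The 3 arrays of a strain were labelled as biological replicates, and whether each was 1 mouse or a pool is not given in the sources used here, so the p-values measure only the spread between these samples.

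COPII is the protein coat that buds vesicles from the endoplasmic reticulum and so starts the transport of newly made secreted and membrane proteins to the Golgi apparatus. The small GTPase Sar1, once loaded with GTP, inserts into the membrane and recruits the inner coat, a pair of Sec23, which stimulates GTP hydrolysis by Sar1, and Sec24, which binds the cargo. Sec13 and Sec31 then assemble into the outer cage. Mammals have several Sec24 genes whose products bind overlapping but not identical cargo, with Sec24a and Sec24b forming one closely related pair and Sec24c and Sec24d the other. In blood, the coat is best known through human SEC23B, mutations of which cause an inherited anaemia with abnormal red cell precursors.

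The values are array signals on a linear scale. Array medians were 65.0 to 79.5. An array's background was set at the 95th percentile of its 27 probe sets for bacterial RNA, and it came to between 21.8 and 38.0. All 12 coat probe sets in the comparison were above the background of their array on all 6 arrays. The 18S ribosomal RNA control varied widely, at 1726, 20010.3 and 12554 on B.D(Chr5) arrays 1, 2 and 3 and at 13058, 2454 and 6306 on C57B/L6 arrays 1, 2 and 3. All 8 compared markers of stem and multipotent progenitor cells were above background on all arrays, among them Cd34 at 3527 ± 376 in B.D(Chr5) and 3933 ± 501 in C57B/L6 (SD, n = 3 each). Genes of maturing neutrophils and of T cells were above background too, for example Cd3e at 149 ± 50.4 in B.D(Chr5) and 174 ± 27.6 in C57B/L6 (SD, n = 3 each). The background lay under the median of every array, and the compared markers were in the upper 50% by mean signal. Being above background therefore does not show which cells gave the RNA.

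Of the Sec24 genes, Sec24d was the one with a lower signal in B.D(Chr5), while Sec24a, Sec24b and Sec24c showed no difference past the threshold. Sec24d, whose loss is lethal to mouse embryos, is read by 1 probe set. Its signal was 490.0, 320.3 and 536 on the B.D(Chr5) arrays and 972, 1262 and 1142 on the C57B/L6 arrays. The groups did not overlap, and the highest B.D(Chr5) array lay well under the lowest C57B/L6 array. The means were 449 ± 114 in B.D(Chr5) and 1126 ± 146 in C57B/L6 (SD, n = 3 each), a difference of -1.32 with an SE of 0.19 on the scale of log2(signal + 16), which is 0.400 times the C57B/L6 level. In cell mixtures such as these, fewer cells of a type and less RNA per cell cannot be told apart. Whether the strains differ in sequence under the probes, which could alter a signal without a change in RNA, was not tested for any gene.

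Sec24c, the closest relative of Sec24d, had a nearly level signal. Its main probe set read 2327, 2184 and 2497 on the B.D(Chr5) arrays and 2231, 2177 and 2463 on the C57B/L6 arrays. The 2 sets of values interleave, with a log2 difference of 0.03 and a 95% interval from -0.17 to 0.23. The dim second probe set of Sec24c read 70.2, 23.5 and 71.3 in B.D(Chr5) and 69.6, 85.0 and 49.2 in C57B/L6, and was below the background of its array on B.D(Chr5) array 2. It was too dim for the comparison.

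Sec24a, the closest relative of Sec24b, also overlapped between the strains. Its main probe set read 1127, 1059 and 1448 on the B.D(Chr5) arrays and 1024, 1201 and 1124 on the C57B/L6 arrays. The log2 difference was 0.11, with a 95% interval from -0.18 to 0.40, and it was -0.03 without B.D(Chr5) array 3, the brightest of the 6. The second Sec24a probe set was dim, between 22.3 and 74.7 in B.D(Chr5) and between 43.2 and 61.9 in C57B/L6, and did not enter the comparison.

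Sec24b, required in mice for neural tube closure, was the least settled of the paralogues, because its probe sets disagreed. The brighter one read 493, 512 and 789 on the B.D(Chr5) arrays and 797, 480.3 and 860 on the C57B/L6 arrays. Each strain thus had high and low arrays, and the values overlapped. Its log2 difference was -0.24, with a 95% interval from -0.77 to 0.30, and it was -0.49 without C57B/L6 array 2 and -0.08 without C57B/L6 array 3. The dimmer Sec24b probe set was steady, at 326, 313 and 280.2 in B.D(Chr5) and 322, 294 and 289 in C57B/L6. Its log2 difference was 0.02, with a 95% interval from -0.28 to 0.32. The intervals of both Sec24b probe sets and of the main probe sets of Sec24a and Sec24c did not reach -1.32, the difference of Sec24d. The family was chosen on the Sec24d signal, so this is a description of the other 3 genes and no test of Sec24d.

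**Figure D1:**
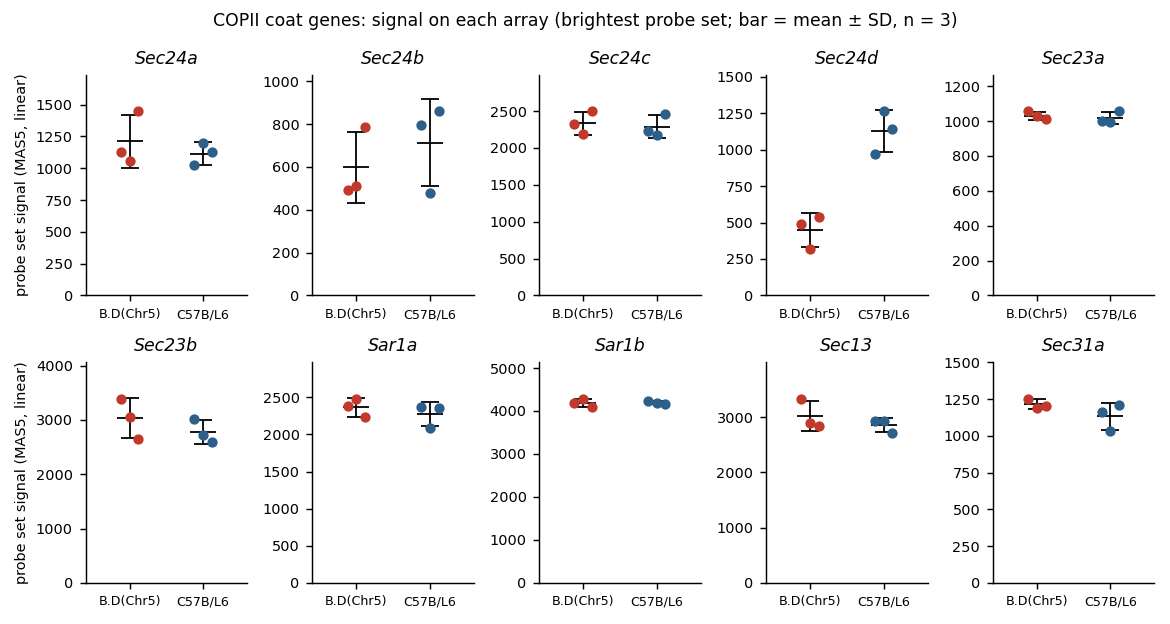
Signal (linear scale, y axes from 0) of the brightest probe set of each of the 10 coat genes on each array, B.D(Chr5) in red and C57B/L6 in blue. Points are arrays 1 to 3 from left to right, and bars show the mean ± SD (n = 3). Sec24d, the gene on which the family was chosen, is split by strain, at 320.3 to 536 in B.D(Chr5) and 972 to 1262 in C57B/L6. The other 9 overlap, and 9.38% of all probe sets compared are split in either direction.

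Signals of different probe sets cannot be set against each other, since probes differ in how strongly they bind, so the order of brightness of the Sec24 genes says nothing of the order of their transcripts. The ratio of 2 probe sets on the same array can be followed between arrays. Sec24d over Sec24c was 0.211, 0.147 and 0.215 on the B.D(Chr5) arrays and 0.436, 0.580 and 0.464 on the C57B/L6 arrays. Sec24d over Sec24a was 0.435, 0.302 and 0.370 on the B.D(Chr5) arrays and 0.950, 1.05 and 1.02 on the C57B/L6 arrays. Both ratios were split by strain, the mean in B.D(Chr5) being 0.387 times and 0.367 times that in C57B/L6. Against the brighter Sec24b probe set the ratio was 0.766 ± 0.199 in B.D(Chr5) and 1.73 ± 0.783 in C57B/L6 (SD, n = 3 each). The ratio of Sec24a to Sec24c, which leaves Sec24d out, was 0.516 ± 0.055 in B.D(Chr5) and 0.489 ± 0.054 in C57B/L6 (SD, n = 3 each). The balance of Sec24d with its relatives thus differed between the strains by about as much as the Sec24d signal itself, which is fixed by the choice of the family on that signal.

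The RefSeq promoter windows of the 4 Sec24 genes and of Sec23a are printed here because Sec24d and Sec23a are the 2 members that carry, in this window, the letters TGACGTGG. This is the core of the unfolded protein response element, which the stress factors XBP1 and ATF6 can bind. Each window runs from 250 bases before the annotated transcript start to 50 bases from it (build GRCm38.p6, 5′ to 3′ on the gene's own strand), and capitals mark that motif.
Sec24d (chr3:123267246-123267545, plus strand): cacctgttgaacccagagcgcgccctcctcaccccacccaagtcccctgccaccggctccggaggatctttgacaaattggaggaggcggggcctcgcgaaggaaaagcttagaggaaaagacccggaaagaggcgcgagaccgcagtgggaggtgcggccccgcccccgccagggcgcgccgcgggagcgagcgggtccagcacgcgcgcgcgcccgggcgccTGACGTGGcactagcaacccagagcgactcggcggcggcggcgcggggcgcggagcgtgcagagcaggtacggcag
Sec23a (chr12:59011968-59012267, minus strand): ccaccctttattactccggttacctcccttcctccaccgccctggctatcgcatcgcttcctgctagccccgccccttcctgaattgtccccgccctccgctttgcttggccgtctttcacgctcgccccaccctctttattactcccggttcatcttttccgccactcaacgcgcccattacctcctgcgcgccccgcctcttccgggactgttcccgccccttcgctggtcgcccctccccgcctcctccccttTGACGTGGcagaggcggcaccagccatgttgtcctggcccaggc
Sec24a (chr11:51756785-51757084, minus strand): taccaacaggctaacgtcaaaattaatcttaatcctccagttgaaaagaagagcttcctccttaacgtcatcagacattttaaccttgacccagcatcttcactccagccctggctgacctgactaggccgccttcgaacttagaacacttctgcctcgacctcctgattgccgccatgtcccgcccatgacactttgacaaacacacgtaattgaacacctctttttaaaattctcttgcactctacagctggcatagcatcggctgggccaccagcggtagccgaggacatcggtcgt
Sec24b (chr3:130060858-130061157, minus strand): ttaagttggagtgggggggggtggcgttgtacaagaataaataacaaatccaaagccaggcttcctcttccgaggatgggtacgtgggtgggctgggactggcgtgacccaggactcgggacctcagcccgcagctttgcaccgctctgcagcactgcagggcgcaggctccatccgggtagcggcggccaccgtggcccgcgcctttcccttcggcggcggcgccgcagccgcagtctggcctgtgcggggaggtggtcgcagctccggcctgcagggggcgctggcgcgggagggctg
Sec24c (chr14:20674071-20674370, plus strand): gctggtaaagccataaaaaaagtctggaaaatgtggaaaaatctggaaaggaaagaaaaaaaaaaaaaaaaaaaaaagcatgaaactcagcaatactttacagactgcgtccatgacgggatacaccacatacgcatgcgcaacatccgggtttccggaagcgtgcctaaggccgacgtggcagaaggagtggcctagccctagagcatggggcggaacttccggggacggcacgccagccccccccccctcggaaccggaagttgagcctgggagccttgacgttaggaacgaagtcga

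The motif begins 26 bases before the start site of Sec24d and 6 bases after that of Sec23a. Searched on both strands, it occurs in 2 of the 12 windows of the 10 genes and in 0.676% of all 32851 windows of this length in the table. The full ER stress response element, CCAAT and CCACG with 9 bases of any kind between, occurs in 0 of the 12 windows and 0.119% of all, and the cAMP response element TGACGTCA in 0 of the 12 and 1.79% of all. The letters CCAAT occur in 4 of the 12 windows and 37.4% of all. The GC box GGGCGG occurs in 7 of the 12 and 35.7% of all. The Sec24d window had the highest share of G and C of the 12, at 72.0%, with 39 CpG pairs, against 68.3% and 26 for Sec24b, 51.7% and 18 for Sec24c and 49.3% and 13 for Sec24a. The Sec23a window had 64.7% and 24, and the medians over all windows were 52.7% and 7. The motif TGACGTGG itself holds a CpG pair, so its share over all windows is not that of windows of like composition. A match is a run of letters in the reference mouse sequence and not a measured binding site. Of the 2 genes with the motif, Sec24d had a log2 difference of -1.32 and Sec23a one of 0.02. Whether the motif plays a part in either value was not tested.

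The Sec23 genes, which encode the partner that Sec24 binds in the inner coat, were level between the strains. Sec23a, mutated in a human disorder of skull and bone formation, read 1055, 1027 and 1009 on the B.D(Chr5) arrays and 999, 995 and 1055 on the C57B/L6 arrays. Its log2 difference was 0.02, with a 95% interval from -0.18 to 0.22. Sec23b, the gene of the inherited anaemia in humans, read 3393, 3064 and 2658 on the B.D(Chr5) arrays and 3020.5, 2715 and 2594 on the C57B/L6 arrays. It was slightly brighter on average in B.D(Chr5), at 3038 ± 368 there and 2776 ± 219.9 in C57B/L6 (SD, n = 3 each), but the arrays overlapped and the 95% interval of the log2 difference of 0.13 ran from -0.11 to 0.36. The ratio of Sec23a to Sec23b on an array was 0.342 ± 0.035 in B.D(Chr5) and 0.368 ± 0.038 in C57B/L6 (SD, n = 3 each).

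The 2 Sar1 GTPase genes showed no strain difference past the threshold, and Sar1b had the smallest spread between arrays of all coat probe sets compared. Sar1b, mutated in a human disease in which the gut cannot export fat-carrying lipoprotein particles, read 4187, 4286 and 4083 on the B.D(Chr5) arrays and 4223, 4189.5 and 4164 on the C57B/L6 arrays. All 6 values lay close together, and the log2 difference was -0.003 with a 95% interval from -0.15 to 0.15. Sar1a read 2379, 2482 and 2235 in B.D(Chr5) and 2376, 2086 and 2350.4 in C57B/L6 on its brighter probe set, a log2 difference of 0.06 with a 95% interval from -0.14 to 0.26. The second Sar1a probe set varied more, at 2509.9, 2305 and 1816 in B.D(Chr5) and 2155, 2275 and 1541 in C57B/L6. On it array 3 was the lowest of each strain, and the log2 difference was 0.16 with a 95% interval from -0.21 to 0.52.

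The outer cage genes were level as well. Sec13, whose product is also a part of the nuclear pore, read 3332, 2900.1 and 2837 on the B.D(Chr5) arrays and 2933, 2927 and 2713 on the C57B/L6 arrays. Its log2 difference was 0.08, with a 95% interval from -0.12 to 0.27. Sec31a, the rod-shaped partner of Sec13, is the 1 coat gene on chromosome 5. It read 1254, 1187 and 1205 on the B.D(Chr5) arrays and 1159.5, 1030.3 and 1210.5 on the C57B/L6 arrays. The highest value was a B.D(Chr5) one and the lowest a C57B/L6 one, with overlap between, and the log2 difference was 0.10 with a 95% interval from -0.11 to 0.32. The ratio of Sec13 to Sec31a on an array was 2.49 ± 0.156 in B.D(Chr5) and 2.54 ± 0.300 in C57B/L6 (SD, n = 3 each).

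Across the coat, no other gene moved past the threshold with Sec24d. Of the 12 probe sets compared, 1 passed limma at an adjusted p under 0.05, that of Sec24d, beside 0.182% of all 22518 probe sets, and nothing is read from that count because the gene was chosen on it. Of the other 11 probe sets, 0 passed, 0 had an unadjusted p under 0.05 (4.73% of all probe sets did), and each had a limma adjusted p of 1.00. The smallest unadjusted p among them was 0.263, that of Sec23b in limma. In 0 of the 11 did the arrays of the strains separate, which they did in 9.38% of all probe sets. Their log2 differences ran from -0.24 to 0.16 with a median of 0.06, and 9 of the 11 were above 0, as were 50.2% of all probe sets, whose median was 0.0004. For 10 of the 11 the 95% interval lay within a change of 1.5-fold in either direction, and the brighter Sec24b probe set was the exception. Smaller changes than these intervals were not detectable with 3 arrays per strain. Summed over the brightest probe sets of the 9 genes other than Sec24d, the signal was 19548, 18701 and 18758 on the B.D(Chr5) arrays and 18761, 17801 and 18534 on the C57B/L6 arrays.

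**Figure D2:**
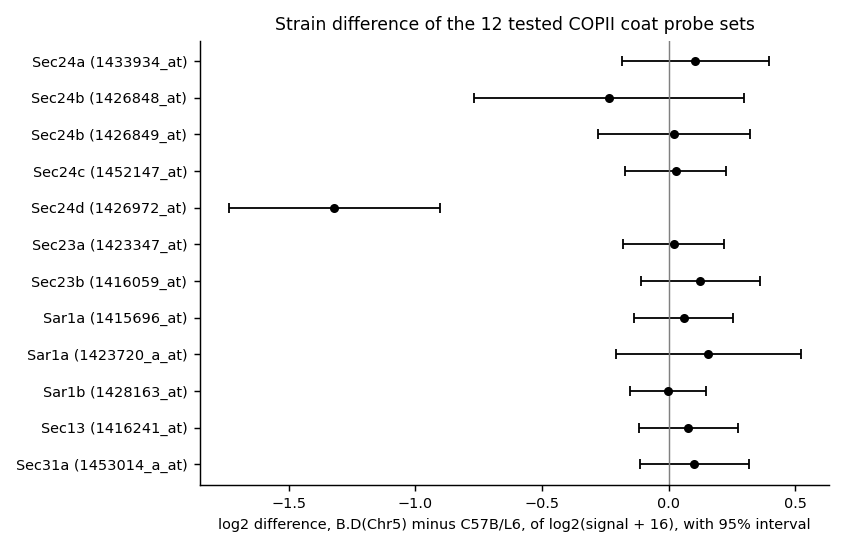
Strain difference of the 12 coat probe sets compared, as B.D(Chr5) minus C57B/L6 of log2(signal + 16), with the 95% interval from limma (n = 3 arrays each). Sec24d, the gene on which the family was chosen, lies at -1.32 and the other 11 lie between -0.24 and 0.16 with intervals that include 0.

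The members also differed in how much their signal varied between arrays of 1 strain. The residual SD on the log2 scale was 0.03 for Sar1b and 0.04 for Sec23a, lower than in all but 0.333% and 1.51% of the probe sets compared, whose median was 0.17. It was 0.30 for Sec24d and 0.41 for the brighter Sec24b probe set, higher than in 80.1% and 91.0% of them. Within B.D(Chr5), Sec24d was lowest on array 2, the array of the highest 18S signal. It was not highest on array 1, that of the lowest 18S signal (1726), where it read 490.0 against 536 on array 3 (18S at 12554). Within C57B/L6 it was lowest on array 1, also that of the highest 18S signal in its strain, and whether 18S plays a part in the spread was not tested.

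By position, Sec24d and Sec24b both lie on chromosome 3, with 13 compared genes between them in the annotation's order, and Sec24a and Sar1b are direct neighbours on chromosome 11 among the compared genes. Of the 20 nearest compared genes around Sec24d, 10 on each side, 5 had a probe set that passed limma, beside 0.223% of all 10743 genes. The gene next to Sec24d, Mettl14, a subunit of the enzyme that adds N6-methyladenosine to RNA, read 203 ± 47.5 in B.D(Chr5) and 936 ± 111 in C57B/L6 (SD, n = 3 each). On the other side stood Fnbp1l, at 276 ± 17.8 in B.D(Chr5) and 877 ± 109 in C57B/L6, Cnn3, at 1579 ± 214 in B.D(Chr5) and 4819 ± 343 in C57B/L6, and Tlcd4, at 216 ± 71.2 in B.D(Chr5) and 1158 ± 218 in C57B/L6 (SD, n = 3 each). The fifth was Alg14, whose probe sets disagreed. Its dim probe set read 32.7, 40.5 and 21.0 on the B.D(Chr5) arrays, the last below the background of its array, and 118, 167 and 147 on the C57B/L6 arrays (limma adjusted p = 0.0421). Its brighter probe set overlapped between the strains, with a log2 difference of -0.10. Between Mettl14 and Sec24b, and for 10 genes beyond Sec24b, 0 genes passed. Sgms2, a sphingomyelin synthase gene 4 places beyond Sec24b, had a log2 difference of 1.61, the largest of that run, with a limma adjusted p of 0.334. Around the other 9 members, 153 distinct genes outside the window of Sec24d held 0 calls, and those around Sec31a on chromosome 5 had log2 differences between -0.29 and 0.68.

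**Figure D3:**
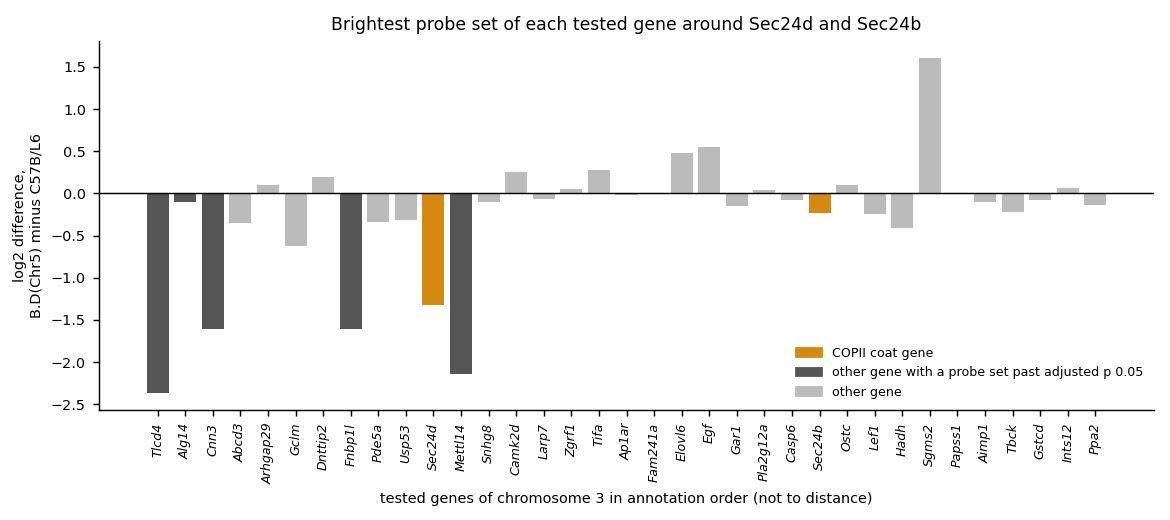
Log2 difference (B.D(Chr5) minus C57B/L6) of the brightest probe set of each compared gene around Sec24d and Sec24b, in the order of the annotation and not to distance. Dark bars are other genes with any probe set past a limma adjusted p of 0.05, Alg14 passing on its dimmer probe set. The passing genes stand from Tlcd4, the first gene shown, to Mettl14 around Sec24d (-1.32), with genes among them that did not pass. Genes beyond Tlcd4 are not shown, and none passed near Sec24b (-0.24).

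Over the 6 arrays, the genes whose log2 signal was most like that of Sec24d were Ccdc59 (Pearson's r = 0.995), Rhbdd1 (0.990), Glipr2 (0.981), S1pr1 (0.980) and Mettl14 (0.980). Of these, S1pr1, a sphingosine-1-phosphate receptor gene, and Mettl14 lie on chromosome 3. The most opposite were Pus7 (r = -0.990), Hebp2 (-0.986), Xxylt1 (-0.980), Rab28 (-0.976) and Gyg (-0.974), of which Pus7 and Rab28 lie on chromosome 5 and Gyg on chromosome 3. With 2 strains of 3 arrays, a gene whose strain difference is large beside its spread within strains tends to a strongly positive or negative r. The values are therefore a description. Among the coat genes, r with Sec24d ran from -0.60 for Sar1a to 0.34 for Sec24b. Ccdc59 stood highest with signals of 311 ± 9.94 in B.D(Chr5) and 354 ± 9.98 in C57B/L6 (SD, n = 3 each), a much smaller change than that of Sec24d.

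The genes that work beside the coat gave the wider setting. Of 107 genes on 6 lists of the secretory pathway, 100 were compared and 0 passed limma, beside 0.223% of all genes, while 22 had a probe set with an unadjusted p under 0.05, beside 7.75% of all genes. On the brightest probe set of each, 76 of the 100 had a log2 difference above 0, as had 46.7% of all genes, with a median of 0.06 against -0.008 over all genes. Of 9 compared genes of COPII assembly and regulation, 0 passed and 0 had an unadjusted p under 0.05, with a median of 0.07. Among them Preb, the exchange factor that loads Sar1 with GTP, read 2579 ± 235 in B.D(Chr5) and 2379 ± 180.1 in C57B/L6. Sec23ip, which binds Sec23, read 563 ± 93.7 in B.D(Chr5) and 491 ± 33.3 in C57B/L6 (SD, n = 3 each) on its probe set of smallest p.

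Cargo receptors and the SNARE proteins that fuse the vesicles were compared for 23 genes, with a median of 0.04. Of these, 0 passed, beside 0.223% of all genes, and 2 had a probe set with an unadjusted p under 0.05, beside 7.75% of all genes. One was Cnih4, of the cornichon family of cargo receptors. It read 2682, 2561 and 2597 on the B.D(Chr5) arrays and 2066, 2094 and 2063 on the C57B/L6 arrays, so that all 3 B.D(Chr5) arrays lay above all C57B/L6 arrays. The arrays of the strains separated, in either direction, in 9.38% of all probe sets. The log2 difference of Cnih4 was 0.33 (limma adjusted p = 0.320), and 0.19 on its dimmer probe set. The other was Lman1, a receptor for glycoproteins such as clotting factors, at 206 ± 24.7 in B.D(Chr5) and 131 ± 20.5 in C57B/L6 (SD, n = 3 each) on 1 of 5 probe sets. The brightest of the 5 had a log2 difference of 0.12.

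The counts of the next lists stand beside 0.223% of all genes that passed and 7.75% with a probe set at an unadjusted p under 0.05. For the tethers that catch the vesicles at the Golgi, 0 of 20 genes passed and 1 had an unadjusted p under 0.05, with a median of 0.02. That 1 was Gorasp2, a Golgi stacking protein, at 3919 ± 306 in B.D(Chr5) and 3340 ± 389 in C57B/L6, and Uso1, which tethers arriving vesicles, read 1844 ± 97.0 in B.D(Chr5) and 1619 ± 72.9 in C57B/L6 (SD, n = 3 each). Of 13 genes of COPI, the coat of the return route, 0 passed and 2 had an unadjusted p under 0.05, with a median of 0.01. These were Arfgap3, at 458 ± 94.2 in B.D(Chr5) and 345 ± 1.05 in C57B/L6, and Copa on its dim probe set, at 104 ± 18.4 in B.D(Chr5) and 176 ± 40.7 in C57B/L6 (SD, n = 3 each). The bright Copa probe set had a log2 difference of -0.12. Of 14 genes of the translocon, through which proteins enter the endoplasmic reticulum, 0 passed and 3 had an unadjusted p under 0.05, with a median of 0.08. Among them Ssr3 read 7059.6 ± 152 in B.D(Chr5) and 6162 ± 195 in C57B/L6, and Sec61a1, the channel subunit, read 2361 ± 148 in B.D(Chr5) and 1955 ± 87.5 in C57B/L6 (SD, n = 3 each) on the probe set of smallest p of 6.

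The list of the unfolded protein response, by which cells raise the folding capacity of the endoplasmic reticulum, had the highest median of the 6, at 0.26. Of its 21 genes 0 passed limma over the whole array, 14 had a probe set with an unadjusted p under 0.05, beside 7.75% of all genes, and 19 had a log2 difference above 0, beside 46.7% of all genes. The count of 14 was 7 without B.D(Chr5) array 1, 9 without B.D(Chr5) array 3 and 15 without B.D(Chr5) array 2. Xbp1, a transcription factor of this response and of secretory cells, read 7502 ± 785 in B.D(Chr5) and 5586 ± 183 in C57B/L6 (SD, n = 3 each) on its probe set of smallest p. Its log2 difference there was 0.42 (limma adjusted p = 0.244), and all 4 of its probe sets were higher in B.D(Chr5), by 0.26 to 0.42. The chaperone gene Hspa5 read 16130 ± 1383 in B.D(Chr5) and 12691 ± 1544 in C57B/L6 (SD, n = 3 each), with differences of 0.35, 0.29 and 0.02 on its 3 probe sets. Summed over the 21 genes, the signal was 89645, 73951 and 84596 on the B.D(Chr5) arrays and 69473, 70903 and 68637 on the C57B/L6 arrays, which do not overlap. Xbp1 and Sdf2l1, a co-chaperone gene, were the 2 secretory pathway genes that passed without B.D(Chr5) array 2.

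**Figure D4:**
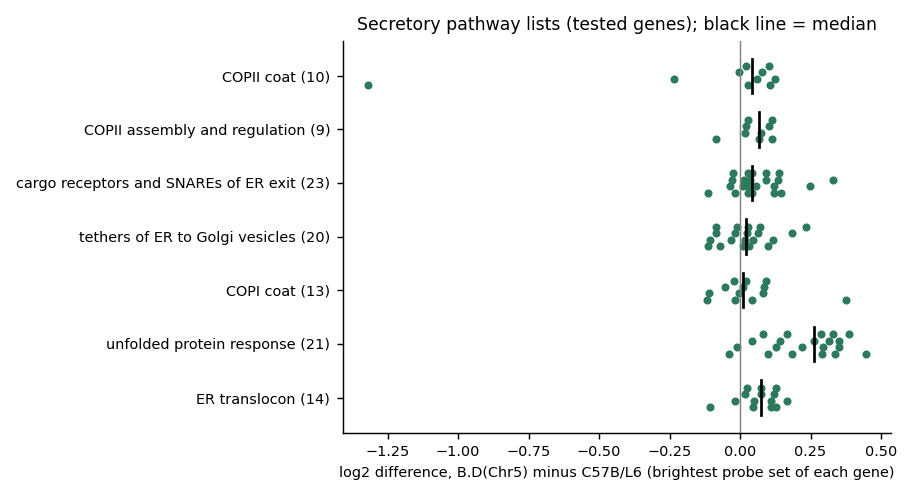
Log2 difference (B.D(Chr5) minus C57B/L6) of the brightest probe set of each compared gene, by list, with the number of genes in brackets and the median as a black line. The coat genes lie near 0 apart from Sec24b at -0.24 and Sec24d at -1.32, and the unfolded protein response list has the highest median, 0.26.

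Markers of secretory blood cells also had higher summed signals in B.D(Chr5), though 0 genes of the lists named next passed limma, beside 0.223% of all genes. Of all genes, 46.7% had a log2 difference above 0. The 6 compared genes of granulocyte-monocyte progenitors, which make large amounts of granule protein, all had log2 differences above 0, with a median of 0.42 and a summed signal of 86917, 62465 and 83699 on the B.D(Chr5) arrays against 59391, 58870.2 and 53981 on the C57B/L6 arrays. The 6 plasma cell genes, which include Xbp1, were also all above 0, with a median of 0.31 and a summed signal of 26565, 27414 and 22262 on B.D(Chr5) arrays 1, 2 and 3 and of 19781 to 20478 in C57B/L6. Xbp1 alone gave 8886 ± 913 of it in B.D(Chr5) and 6944 ± 187 in C57B/L6 (SD, n = 3 each). It is also in the unfolded protein response sum, so the plasma cell sum is not independent of that one. Jchain, the brightest of the list, overlapped, at 14859, 17950 and 11022 in B.D(Chr5) and 12224, 11652 and 11622 in C57B/L6. Of the 63 compared genes on 11 marker lists, 1 passed limma, beside 0.223% of all genes. It was the stem cell marker Slamf1, higher in B.D(Chr5). Of the 8 compared genes on its list, of stem and multipotent progenitors, Slamf1 was the only 1 with a log2 difference above 0. The 7 genes of maturing neutrophils and the 6 of mast cells, basophils and eosinophils were all above 0 as well, and again 0 passed. The neutrophil genes summed to 52462, 53238 and 72932 on B.D(Chr5) arrays 1, 2 and 3 and to 43558 to 48764 in C57B/L6. The mast cell, basophil and eosinophil genes summed to 14169, 5904 and 12075 on B.D(Chr5) arrays 1, 2 and 3 and to 5382 to 6170 in C57B/L6, which overlap. Among the B.D(Chr5) arrays, array 1 was the highest and array 2 the lowest for the unfolded protein response, the granulocyte-monocyte progenitors and the mast cell list, whereas array 2 was the highest for plasma cells and array 3 for neutrophils. The genes of the 4 marker lists summed here were above background on every array. The part of these cells in the values of the secretory genes, and in that of Sec24d, was not tested. The remaining marker lists had medians of 0.42 for maturing neutrophils, 1.00 for mast cells, basophils and eosinophils, 0.23 for monocytes and macrophages, 0.68 for B lymphoid cells and 1.01 for stroma, bone and endothelium. Those of stem and multipotent progenitors (-0.14), erythroid cells (-0.16), megakaryocytes (-0.13) and T and NK cells (-0.56) were below 0.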

How the data were processed

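RNA of 3 B.D(Chr5) and 3 C57B/L6 samples was measured on 6 Affymetrix arrays of 1 colour. Each deposited value is the intensity of a probe set, unlogged, which the authors obtained, per the submitters' processing notes, by MAS5. No version or setting of it is named in the sources used here. Each array has a mean of 500.0 once its extremes are trimmed. Of 45101 probe sets, 64 controls were left out. Symbols came from the platform annotation, 34945 probe sets having 1, 932 several and 9160 none, and were updated through Entrez identifiers to RefSeq (GRCm38.p6) for 34741. All 10 members matched. Probe sets with several genes were not used for any gene. Promoter windows come from RefSeq on GRCm38.p6. No build comes with the arrays, so gene order was taken from that annotation and no gene coordinates are given.

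Intensities were turned into log2(signal + 16), which understates changes of dim probe sets. The upper 50% by mean over all arrays, 22518 probe sets, entered a two-sided limma fit (version 3.58.1, R 4.3.3) of strain alone, by lmFit and eBayes (trend on), with Benjamini-Hochberg adjustment over all of them. Intervals of 95% are limma's and rest on 3 arrays per strain. A gene counts as passing if any of its probe sets passed. Its brightest probe set stands for it otherwise. The code was tested on simulated data. No array pair held identical values (0 pairs). The members and gene lists were chosen with earlier results of these data known. All members are named, together with the called genes or the 2 of smallest p of each list, called genes among the 20 neighbours of a member, and the 5 most and 5 least like Sec24d. Cd34, Cd3e, Sgms2, Slamf1, Sdf2l1 and Jchain were added after their values were seen. No replicate pairing was taken, since same-numbered arrays did not all deviate together. A match of the arrays in another order was not modelled. Alternatives covered pseudocount, filter, scaling, eBayes, block, probe set types and left-out arrays. An unfolded protein response count under them was added after the data were seen.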

Additional observations from a re-analysis of the deposited data

How the results depend on the processing

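The Sec24d difference of -1.32 lay between -1.46 and -1.10 under all 16 alternatives, the ends being without B.D(Chr5) array 3 and without B.D(Chr5) array 2. The count of coat probe sets past the threshold, 1 as reported, was 0 without the filter on dim probe sets, 0 with eBayes without trend and 0 with the replicate block, and between 0 and 1 with an array left out. It was 0 without B.D(Chr5) array 1 and 0 when any C57B/L6 array was dropped. Wherever the count was 1, the probe set was that of Sec24d. The family was chosen on that gene, so nothing is read from these counts. Of the other coat probe sets, 0 passed under any alternative. The count over the whole array, 41 as reported, was 70 with median centring, 26 with eBayes without trend, 25 with the replicate block, 23 without probe sets ending in _x_at or _s_at, 1064 at an unadjusted p under 0.05, and 22 to 74 with an array left out, the highest being without B.D(Chr5) array 2, where 71.6% of calls were higher in B.D(Chr5) against 51.2% as reported. The lowest counts were 22 without B.D(Chr5) array 1 and 23 and 24 without C57B/L6 arrays 2 and 3. The count of secretory pathway genes, 0 as reported, was 22 at an unadjusted p under 0.05 and 0 to 2 with an array left out. The 14 genes of the unfolded protein response at an unadjusted p under 0.05 were 7 with eBayes without trend and 7 to 15 with an array left out. The cause of these changes was not tested. Same-numbered arrays of the strains had correlations of deviations of -0.11, -0.20 and 0.19, and not every array correlated best with its own number, so the numbers do not pair the samples. Across numbers, B.D(Chr5) array 1 had 0.25 with C57B/L6 array 2, and B.D(Chr5) array 2 had 0.29 with C57B/L6 array 1. The remaining pairs of unlike number were below 0. A match of arrays in that order was not modelled, and its origin was not tested. The signs of the small differences of Sar1b, Sec24c, Sec24a, the dimmer Sec24b and the second Sar1a probe set turned under 3, 2, 1, 3 and 1 alternatives. The 3 arrays per strain limit the precision, and signals near the background of 21.8 to 38.0 have little meaning.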
